A study of Homo sapiens with 6 samples.

Results

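Chromatin was found open at 697 regions in both ATAC-seq libraries of KYSE-30, an esophageal squamous cell carcinoma (ESCC) cell line, and 530 of them lay at promoters. The regions were chosen by the peak calls themselves. The peaks of all 6 libraries of the series were merged where they shared at least 1 bp (hg19), and a merged region was kept when it held a peak of KYSE-30 library 4 and a peak of KYSE-30 library 6. This gave 697 of 23972 merged regions. A further 10945 regions held a peak of library 6 and not of library 4, and 548 held a peak of library 4 and not of library 6. Both KYSE-30 peak lists were thereby used in the choice, so all KYSE-30 values below are descriptions. Location and sequence were not used, and peaks of the other lines entered only through the merging, which joined the KYSE-30 peaks of 3 regions.

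The series compared 3 untreated human lines with 2 libraries each. HET-1A is a non-tumorigenic esophageal epithelial line grown in BEBM medium with its additives, and KYSE-30 and KYSE-150 are ESCC lines grown in RPMI/F12 medium with serum. The labels do not say whether the 2 libraries of a line came from separate cultures, so differences between them may be technical. The libraries were of very unequal yield. KYSE-30 library 6 held 11671 peaks and library 4 held 1255, HET-1A held 15979 in library 2 and 168 in library 1, and KYSE-150 held 547 and 259. The genome background, the smallest local background of a library, was higher in library 4 (2.36 tags per 200 bp) than in library 6 (1.49), while its peak list was the shorter one. With 2 libraries against 2, an exact permutation test cannot give a two-sided p below 0.33, so no test between lines was made and each library is given on its own. Intervals are Wilson 95% intervals and cover counting error only.

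ATAC-seq marks accessible DNA through insertions of the Tn5 transposase. In most cells the strongest sites are nucleosome-free promoters of widely used genes, where general factors such as NF-Y, SP1 and ETS proteins bind. Enhancers open in a more cell-type-restricted way, and in epithelial cells many of them carry the binding motif of AP-1, a dimer of JUN and FOS family proteins that acts downstream of growth factor receptors such as EGFR. A peak states only that fragments were dense at that place relative to its surroundings. A region without a peak in a shallow list is not shown to be closed.

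The sequences under the regions differed between promoter and other locations, and both kinds are shown here from the hg19 genome, plus strand. Among the 167 regions outside promoters, 97 held the AP-1 core TGACTCA or its reverse complement TGAGTCA. The 5 in which a core lay nearest to the summits of both libraries are printed with the core in capitals and 37 bases to each side.
UBAC1 downstream, chr9:138818805-138818885: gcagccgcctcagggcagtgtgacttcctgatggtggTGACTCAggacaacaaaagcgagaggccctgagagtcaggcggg
MBOAT2 upstream, chr2:9211336-9211416: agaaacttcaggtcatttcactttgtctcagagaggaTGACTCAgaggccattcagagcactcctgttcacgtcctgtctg
EGFR intron, chr7:55133517-55133597: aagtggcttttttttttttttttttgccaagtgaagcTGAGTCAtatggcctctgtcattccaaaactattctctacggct
QSOX1 intron, chr1:180137328-180137408: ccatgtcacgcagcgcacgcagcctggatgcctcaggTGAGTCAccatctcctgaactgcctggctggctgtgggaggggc
PURPL intron, chr5:27495135-27495215: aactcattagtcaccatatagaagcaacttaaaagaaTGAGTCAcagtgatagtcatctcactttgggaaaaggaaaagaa
In the first of these, 18068 bp downstream of the start site of UBAC1, the core lay within 4 bp of both summits. The second, at -67543 bp from the start site of MBOAT2 (upstream), had a core within 5 bp, the EGFR intron within 11 bp, the QSOX1 intron within 15 bp and the intron of the lncRNA gene PURPL within 16 bp.

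Promoter regions carried other motifs. The 4 regions with the highest mean rank of fold enrichment among those within 300 bp of a protein-coding start site are printed over 121 bp around the library 6 summit. Regions with over 50% repeated sequence and those of some chromosomes were passed over in this choice. Capitals mark any of the NF-Y motif CCAAT on either strand, the cyclic AMP response element TGACGTCA, the ETS motif, the GC box bound by SP1 factors, and the palindromes bound by NRF1 (GCGCATGCGC) and ZBTB33 (TCTCGCGAGA).
ZNF286A, chr17:15602859-15602979: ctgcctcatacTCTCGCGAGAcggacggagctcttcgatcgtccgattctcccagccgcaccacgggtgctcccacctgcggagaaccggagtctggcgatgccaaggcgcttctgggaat
EDEM3, chr1:184724083-184724203: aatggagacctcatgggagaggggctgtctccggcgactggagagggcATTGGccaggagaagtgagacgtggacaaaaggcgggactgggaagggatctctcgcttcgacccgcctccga
ZNF519, chr18:14132502-14132622: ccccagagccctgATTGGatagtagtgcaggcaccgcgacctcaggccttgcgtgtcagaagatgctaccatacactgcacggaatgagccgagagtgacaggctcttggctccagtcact
MLF1, chr3:158288862-158288982: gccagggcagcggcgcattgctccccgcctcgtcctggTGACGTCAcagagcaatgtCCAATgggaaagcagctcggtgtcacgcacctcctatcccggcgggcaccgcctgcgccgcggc
ZNF286A encodes a zinc finger protein of the KRAB type, EDEM3 an enzyme that trims mannose from misfolded glycoproteins, ZNF519 another zinc finger protein, and MLF1 the myeloid leukemia factor 1. The ZNF286A window held the ZBTB33 palindrome, those of EDEM3 and ZNF519 an NF-Y motif, and that of MLF1 a response element and an NF-Y motif. Repeated 31-base words made up 43.5% of the ZNF519 region and 47.0% of the ZNF286A region, and none of those of EDEM3 and MLF1.

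Fold enrichment is the number of tags at the summit over the local background, with 1 added to each. In library 4 it ranged from 1.96 to 38.6 at the 697 regions, with a median of 4.41, and in library 6 it ranged from 2.21 to 30.0, with a median of 6.63. Summits held a median of 19 tags in library 4 (12 to 269) and 25 in library 6 (10 to 227). The enrichment was higher in library 6 at all but 56 regions, with a median ratio of 1.51. Ranked within its own list, a region stood at a median percentile of 56.6 in library 4 and 75.7 in library 6. Spearman's correlation of the 2 fold enrichments over the regions was 0.254, and the points share genome position and base composition. The summits lay a median of 66 bp apart, with quartiles of 21 and 136 bp. The regions spanned a median of 505 bp, against 306 bp for those of library 6 alone and 243 bp for those of library 4 alone, a width to which every merged peak contributes.

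**Figure D1:**
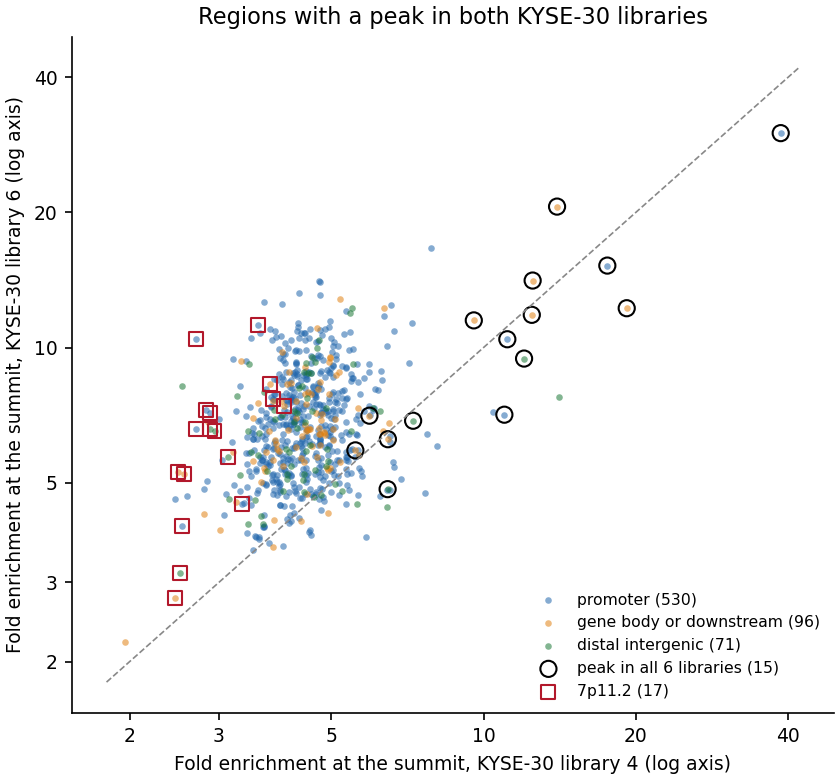
Fold enrichment at the summit in KYSE-30 library 4 (x) and library 6 (y), both on log axes, for each of the 697 regions, coloured by class. The dashed line marks equal values, black circles the 15 regions with a peak in all 6 libraries and red squares the 17 regions of 7p11.2. Most points lie above the line, and 10 of the 15 circled regions lie below it.

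At the edge of the choice, 694 regions held peaks of both libraries that overlapped directly, by a median of 238.5 bp. The smallest overlaps were 17 bp at SEPTIN9-DT and at ECT2, and 22 bp at ANO1. At QRICH1, NEU1 and LINC03015 the peaks were joined only through a peak of another library. Just outside, 20 library 4 peaks ended within 200 bp of a library 6 peak without touching it, the nearest of them 33 bp away near POM121L12 and 35 bp away near HOXD12.

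A promoter was taken to reach 3 kb upstream and downstream of any annotated start site, and promoters held 530 of the 697 regions (76.0%, 72.7 to 79.1). The share was 53.7% (52.8 to 54.6) at regions of library 6 alone and 47.8% (43.7 to 52.0) at regions of library 4 alone. Distal intergenic regions numbered 71 (10.2%, 8.16 to 12.7), first introns held 44, other introns 36, downstream windows 10 and exons 6. The promoter share was higher in weak and in strong peaks alike. Among library 6 regions in the lowest of 4 bins of library 6 fold enrichment, 71.0% (58.7 to 80.8) of those shared with library 4 were promoters, against 51.7% (49.8 to 53.5) of those that were not. In the highest bin the shares were 77.6% (73.0 to 81.6) and 57.5% (55.6 to 59.5).

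The promoter regions sat on the start sites. The library 6 summit lay within 200 bp of a start site at 416 of the 530 and upstream of the nearest start site at 376. The region itself covered a start site at 455 (85.8%, 82.6 to 88.6), against 65.6% (64.3 to 66.8) of the promoter regions of library 6 alone and 30.5% (25.3 to 36.4) of those of library 4 alone. This measure depends on width, for which no allowance was made. The shared promoter regions had a median width of 523 bp. Over all regions of library 6 alone it was 306 bp, and over those of library 4 alone 243 bp. Start sites on both strands stood within 500 bp of the summit at 190 (35.8%, 31.9 to 40.02), against 25.01% (23.9 to 26.1) of those of library 6 alone. The order of the start sites was not part of this measure, so divergent promoters are not told apart from overlapping or convergent start sites. The nearest start site belonged to a protein-coding gene at 397 and to a long non-coding RNA at 101.

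Motifs at promoter summits were counted in windows of 200 bp. These were centred on the library 6 summit, which lay upstream of the nearest start site at 376 of the 530. Windows of all protein-coding genes were centred on the start site itself, and no allowance was made for this difference in position. The NF-Y motif stood in 263 of the 530 windows (49.6%, 45.4 to 53.9), against 33.8% (32.6 to 35.1) at promoters of library 6 alone, 25.8% of windows centred on the start sites of all protein-coding genes and 25.9% of windows 10 kb downstream. A GC box (GGGCGGG) stood in 37.5% (33.5 to 41.8), against 30.1% (29.0 to 31.3) at promoters of library 6 alone and 32.9% at all start sites. The cyclic AMP response element stood in 4.34% (2.91 to 6.43), against 2.40% (2.04 to 2.82) and 1.85%. For the ETS motif (CCGGAAG) the shares were 11.9% (9.402 to 14.9), 12.9% (12.1 to 13.8) and 10.1%, with intervals that overlap. The AP-1 core was rarer at these promoters, at 7.55% (5.59 to 10.1), than at promoters of library 6 alone, at 13.2% (12.3 to 14.04). It stood in 2.62% of all start site windows. The shared promoter regions covered a start site more often than those of library 6 alone (85.8% against 65.6%). No allowance was made for this in any of the motif shares, so position and sharing are not told apart here. Median GC content was 62.5% at the promoter summits and 43.5% at 10 kb from them.

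Outside promoters the AP-1 core stood in 77 of 167 summit windows (46.1%, 38.7 to 53.7), against 1.20% of windows 10 kb downstream. At the regions of library 6 alone it stood in 42.6% (41.2 to 43.95), within the interval of the shared regions, at those of library 4 alone in 9.09% (6.28 to 13.0), and in 27.1% (25.96 to 28.2) of regions with a HET-1A library 2 peak and no KYSE-30 peak. Over whole regions the share was 58.1% (50.5 to 65.3), against 7.19% for the same lengths moved 10 kb. The core was within 50 bp of the library 6 summit at 55 of the 97 regions that held one, within 50 bp of the library 4 summit at 44, and of both at 31. More than 1 core was found in 39. The motif GGAATG of the TEAD factors, partners of YAP, stood in 22.2% (16.5 to 29.0) of the windows, against 22.2% (21.0 to 23.3) at regions of library 6 alone and 9.04% at 10 kb. These are matches of letters and not shown binding.

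**Figure D2:**
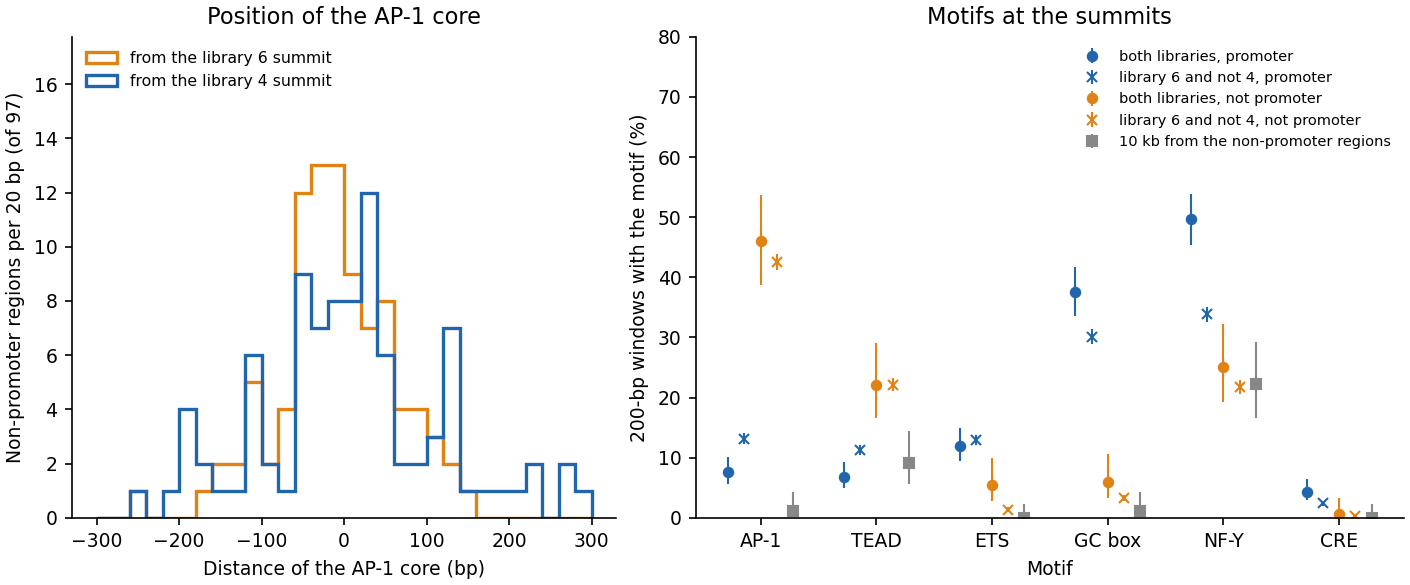
Left, distance of the AP-1 core from the library 6 summit (orange) and the library 4 summit (blue) at the 97 non-promoter regions with a core, in bins of 20 bp (4 and 5 regions with a core over 300 bp away are not drawn). Right, percent of 200-bp windows with each motif at promoters (blue), outside them (orange) and 10 kb from the latter (grey squares), with Wilson 95% intervals. AP-1 and TEAD motifs are most frequent outside promoters and NF-Y and GC box motifs at promoters, and the shared regions (circles) exceed those of library 6 alone (crosses) most for NF-Y.

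The 5 AP-1 regions printed above ranged from weak to strong within the KYSE-30 lists. The region near MBOAT2, an acyltransferase gene, had fold enrichments of 5.49 in library 4, 12.2 in library 6 and 5.74 in HET-1A library 2. At the intron of QSOX1, a sulfhydryl oxidase gene, the values were 3.87, 6.22 and 4.18. The region near UBAC1 had 3.64, 4.21 and 2.86, the lowest of these 3 loci in each library. The EGFR intron, at 2.49 and 5.28, and the PURPL intron, at 4.75 and 8.38, had a peak in no other library. Over all non-promoter regions the core stood in 49 of 99 windows shared with HET-1A library 2 (39.9 to 59.2%) and in 28 of 65 windows with no peak in another line (31.8 to 55.2%), and the intervals overlap.

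Most of the regions were also called in HET-1A. A peak of its library 2 stood at 510 of the 697 (73.2%, 69.8 to 76.3). Over all merged regions the share was 66.5%, but that set includes every peak of HET-1A library 2 itself, and the nearer background is the 36.8% of regions of library 6 alone. At promoters the share was 77.5% (73.8 to 80.9) against 47.0% (45.7 to 48.3), and at distal intergenic regions 57.7% (46.2 to 68.6) against 26.1% (24.2 to 28.1). The gap was present in each bin of peak strength. In the lowest bin of library 6 fold enrichment the shares were 62.9% (50.5 to 73.8) and 26.9% (25.3 to 28.5), and in the highest 76.5% (71.8 to 80.6) and 48.0% (46.1 to 49.96). At the 510 shared regions the HET-1A library 2 fold enrichment had a median of 5.30 and a median percentile of 80.6 in its own list, and its summit lay a median of 50 bp from that of library 6.

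The remaining lists were short and the shares small. In HET-1A library 1, 18 of the 697 regions had a peak (2.58%, 1.64 to 4.05), against 0.697% of all merged regions and 0.0274% of regions of library 6 alone. KYSE-150 library 7 had one at 59 (8.46%, 6.62 to 10.8), against 2.28% and 1.45%, and KYSE-150 library 8 at 28 (4.02%, 2.79 to 5.75), against 1.07% and 0.201%. These shares rest in part on 15 regions with a peak in every library, which are described below. Without them a peak of HET-1A library 1 stood at 3 of 682 (0.440%, 0.150 to 1.29). This interval includes the 0.697% of all merged regions and lies above the 0.0274% of regions of library 6 alone, which rests on 3 regions. KYSE-150 library 7 then had a peak at 44 (6.45%, 4.84 to 8.55) and KYSE-150 library 8 at 13 (1.91%, 1.12 to 3.23). Peaks in all 3 lines stood at 54 regions (7.75%, 5.99 to 9.97), against 1.25% of regions of library 6 alone. No peak of another line stood at 174 (24.96%, 21.9 to 28.3), against 62.8% of regions of library 6 alone, a share that rests on HET-1A library 2 and was 90.7% without that library. Of the 174, 109 were promoters (62.6%, 55.3 to 69.5), against 421 of the 523 regions shared with another line (80.5%, 76.9 to 83.7). A KYSE-150 peak with no HET-1A peak stood at 12 regions (1.72%, 0.988 to 2.98), against 0.347% of regions of library 6 alone, and the short KYSE-150 lists limit this count.

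**Figure D3:**
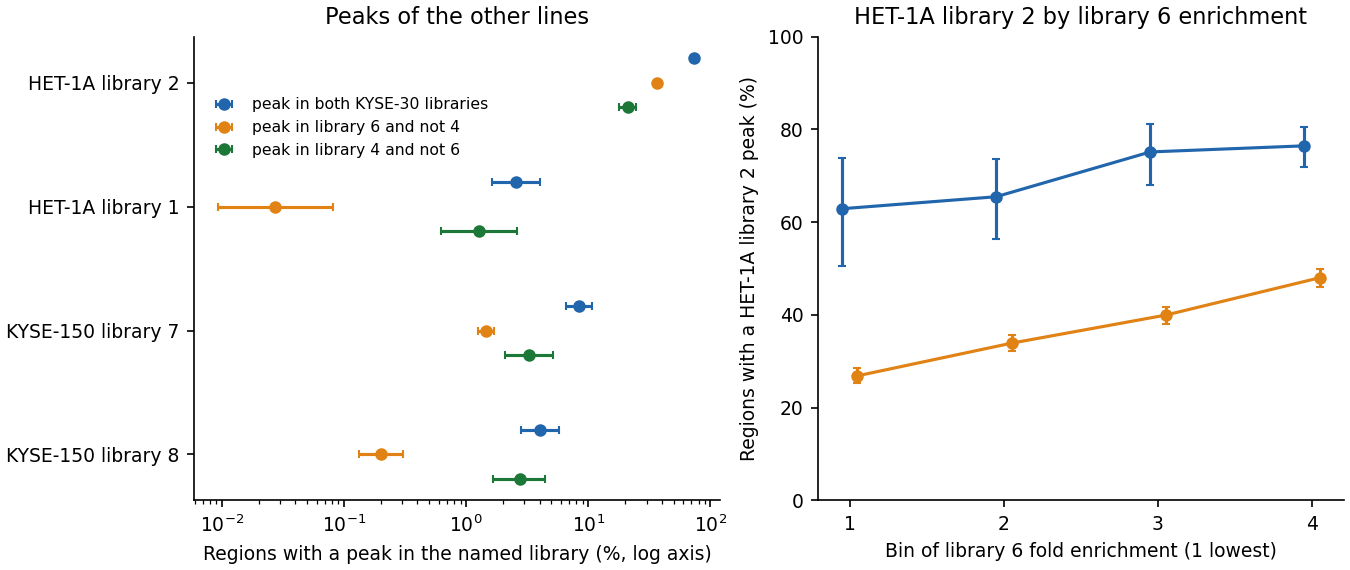
Left, percent of regions with a peak in each library of the other lines (log axis), for regions with a peak in both KYSE-30 libraries (blue), in library 6 and not 4 (orange) and in library 4 and not 6 (green). Right, percent with a HET-1A library 2 peak in 4 bins of library 6 fold enrichment; bars are Wilson 95% intervals, and the blue points lie above the orange ones in every bin.

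In 15 of the regions every library had a peak, and they included the strongest. The strongest was at RNA5-8SP6, an rRNA pseudogene (chrY:10037671-10038003), with fold enrichments of 38.6 and 30.0 in KYSE-30, 36.1 and 39.1 in HET-1A and 37.9 and 34.6 in KYSE-150. At RAC1P4, a RAC1 pseudogene (chrX:136520302-136520680), the values were 13.97 and 20.6 in KYSE-30, 25.7 and 9.44 in HET-1A and 17.98 and 25.6 in KYSE-150. Others stood near RPL13AP15, a ribosomal protein pseudogene (19.2 and 12.2 in KYSE-30), at 2 sites of the lncRNA MIR663AHG (17.6 and 15.2 at one, 11.1 and 10.4 at the other), in the lncRNA ENSG00000258807 (12.5 and 14.1) and in the first intron of PARN, a poly(A) nuclease gene (9.57 and 11.5). The remaining sites were near ENSG00000236854, MIR607, REXO1L3P, CDC27P1, LINC00854, RNA5SP488 and at 2 places in LINC01606. In contrast to the regions at large, 10 of the 15 were stronger in library 4 than in library 6.

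These 15 regions shared sequence with other places in the genome. Every one held at least some 31-base words that occur elsewhere in hg19, from 3.47% to 70.5% of its words with a median of 20.7%, whereas 544 of all 697 regions held none. Words of that kind made up more than 50% of the sequence at 26 regions (3.73%), among them 3 of the 15, against 2.37% of regions of library 6 alone and 15.3% of those of library 4 alone. Library 4 was stronger than library 6 at 10 of these 26 regions and at 46 of the other 671. Reads of such sequence can be placed at more than 1 site, so the positions are uncertain, and the part of placement in these values was not tested.

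**Figure D4:**
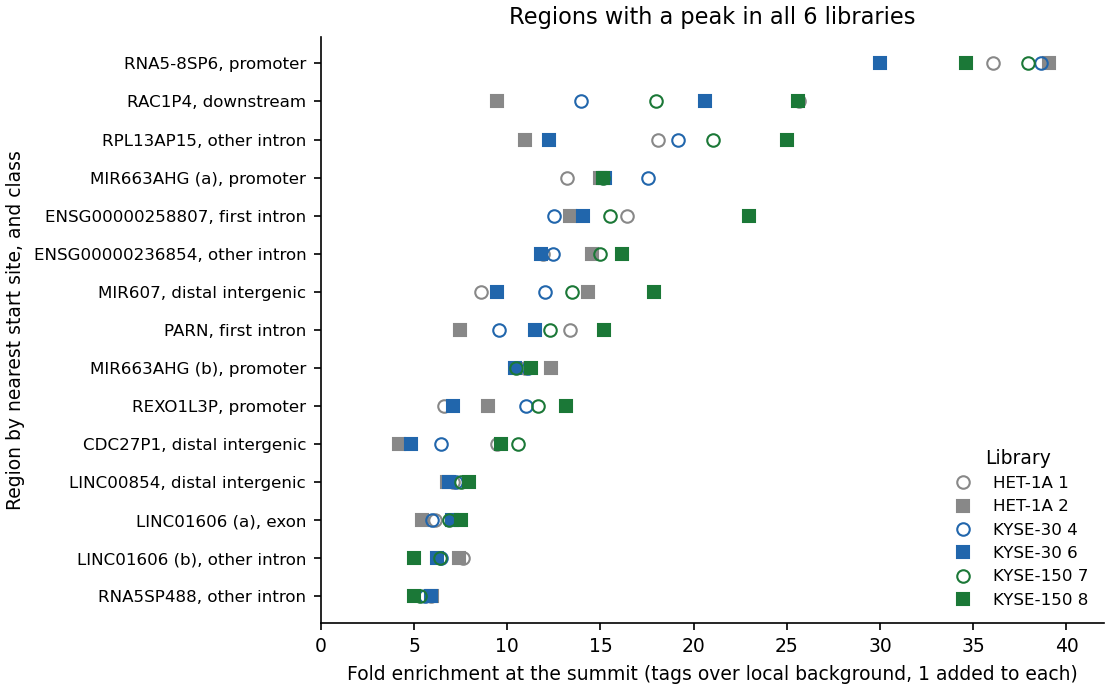
Fold enrichment at the summit in each of the 6 libraries (points) for the 15 regions with a peak in all of them, named by the nearest start site and class and ordered by the median. Values run from 4.22 to 39.1, and RNA5-8SP6 is highest in each library.

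Beyond these, ZNF286A and EDEM3 were the remaining promoters among the 5 leading by mean rank within the 2 lists. ZNF286A had fold enrichments of 7.86 in library 4, 16.7 in library 6 and 14.4 in HET-1A library 2, with 47.0% repeated words. EDEM3 had 7.24, 11.3 and 7.14, and no repeated word. ZNF519, at 6.57 and 12.4, and MLF1, at 6.35 and 11.7, had a peak in no other library. They came from the choice printed above, which took only regions near protein-coding start sites. Distal intergenic regions were led, after the site near MIR607, by the MBOAT2 region given above and by one 26231 bp downstream of the start site of P3H2, a collagen prolyl hydroxylase gene, at 5.45 in library 4 and 11.96 in library 6 with no peak in another library. Next stood a region 95603 bp from C17orf67 (5.53, 9.18 and 4.92 in HET-1A library 2) and one near ENSG00000279918 whose sequence was 100% repeated (14.1 and 7.75 in KYSE-30, 7.37 in KYSE-150 library 7).

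The 5 widest regions were of mixed kind. The widest, 2064 bp, lay at the lncRNA ENSG00000263305 near the end of the short arm of chromosome 18, and the next, 1599 bp, at ENSG00000250519 with 84.5% repeated words. The third was a first intron of EGFR (chr7:55200292-55201809, 1518 bp), with 133 tags at the summit in library 4, 227 in library 6 and 27 in HET-1A library 2. LINC00854 (1436 bp) and ENSG00000286010, at -66453 bp from the start site of MYC (upstream, 1350 bp), followed.

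Gene lists were read at promoters. Of 20176 protein-coding genes, 596 had one of the regions within 3 kb of a start site (2.95%), and 42 of 1117 genes in 19 lists did. In 8 of the lists no gene had one, namely EGFR with its ligands and related receptors (13 genes), squamous lineage transcription factors (14), epithelial junction genes (18), mesenchymal genes (14), YAP and TEAD pathway genes (15), NRF2 and its targets (14), RNA polymerase subunits (31) and keratins (55). Library 6 by itself had a peak at 6 of the 14 squamous factors and 7 of the 18 junction genes. It had one at 1 of the 14 mesenchymal genes and 1 of the 55 keratins. In the EGFR list it had one at 6 of 13 genes, and in the NRF2 list at 6 of 14. In the YAP and TEAD list the count was 4 of 15, and in the RNA polymerase list 16 of 31. Over all coding genes library 6 had a peak at 28.7%. For the 8 lists without a region, the upper Wilson limit of the share ran from 6.53% for the keratins to 22.8% for the EGFR list. Every such limit lay above the 2.95% of all coding genes, so the empty lists are not set apart from that share.

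Integrin and laminin genes, which anchor epithelium to its basement membrane, had the highest share, 4 of 17 (23.5%, 9.56 to 47.3). Library 6 by itself had a peak at 8 of the 17 (47.1%), against 28.7% of all coding genes. LAMA3, a laminin alpha chain gene, had fold enrichments of 5.12 in library 4, 7.69 in library 6 and 5.30 in HET-1A library 2. LAMC1 (3.68 and 4.01) had a peak in no other library, and ITGAV, the integrin alpha V gene (3.94 and 4.92), had one in KYSE-150 library 7 (3.60). Within the 2 KYSE-30 lists LAMA3 (percentiles 85.8 and 88.2) stood high, and LAMC1 (17.8 and 7.01) and ITGAV (29.8 and 33.5) low.

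Lists of signalling and the cell cycle held 1 or 2 genes each, 2 of 20 AP-1 family genes (10%, 2.79 to 30.1), 2 of 18 cyclins, CDKs and inhibitors (11.1%, 3.102 to 32.8), 1 of 14 MAPK feedback genes (7.14%, 1.27 to 31.5) and 1 of 25 ETS factors (4.0%, 0.710 to 19.5), and all but the cyclin list had intervals that include the 2.95% of all coding genes. Among the AP-1 genes, ATF3, a stress-induced factor, had 4.11 in library 4, 6.63 in library 6, 4.29 in HET-1A library 2 and 2.76 in KYSE-150 library 7, and ATF2 had 4.17, 10.4 and 6.68 in the first 3 of these. The ETS factor GABPA had 3.98, 10.6 and 5.07. The MAPK feedback gene PHLDA1 had 3.72, 6.02 and 4.14. In the cyclin list, library 6 by itself had a peak at 8 of the 18 genes (44.4%), against 28.7% of all coding genes. With promoters of 1 kb this list held 1 of 18 (5.56%), against 2.81% of all coding genes. CCNB1, cyclin B1 of mitosis, had 5.40, 5.597 and 6.68. The region counted for CDK2, the kinase of S phase entry, had 4.65, 7.82 and 5.25, but it lay at -194 bp from the start site of RAB5B, a gene of endosome traffic, and was not counted for CDK2 with promoters of 1 kb. The GABPA region likewise lay nearer to the start site of ATP5PF, at -19 bp. HET-1A library 2 had a peak at each of these regions.

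Of the housekeeping lists, the proteasome had 4 of 39 (10.3%, 4.06 to 23.6), above the 2.95% of all coding genes, namely PSMA3, PSMB1, PSMC4 and PSMD5, with 3.99 to 6.04 in library 4 and 5.06 to 8.29 in library 6. Library 6 by itself had a peak at 24 of the 39 (61.5%), also above its 28.7% of all coding genes. The PSMB1 region lay 10 bp from the start site of TBP. Splicing factors had 3 of 52 (SF3A3, SF3B6 and SRSF5, 5.77%, 1.98 to 15.6), mitochondrial ribosomal proteins 3 of 78 (MRPS17, MRPS27 and MRPS30, 3.85%, 1.32 to 10.7), cytosolic ribosomal proteins 2 of 82 (among them RPL30) and histones 1 of 90 (H2AX). ZNF zinc finger genes had 19 of 508 (3.74%, 2.41 to 5.77), from 3.78 at ZNF292 to 7.86 at ZNF286A in library 4. Promoters of ZNF519 (12.4), ZNF695 (11.01) and ZNF292 (10.98) followed ZNF286A in library 6. Over all lists 41 regions carried these genes. A HET-1A library 2 peak stood at 28 of them (68.3%, 53.0 to 80.4), against 77.5% of the 530 promoter regions, and a KYSE-150 peak at 3 (7.32%, 2.52 to 19.4), against 9.81%, so both shares were near those of promoters in general.

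The regions were spread over 543 windows of 1 Mb, of which 431 held 1 region. Windows with the most regions lay on 7p11.2, with 8 from 55 to 56 Mb, 5 from 56 to 57 Mb and 4 from 54 to 55 Mb, and on 17p, with 5 from 18 to 19 Mb and 4 from 15 to 16 Mb. Others with 4 were at STK40 and THRAP3 on chromosome 1 (36 to 37 Mb), at ATF3 and BATF3 on the same chromosome (212 to 213 Mb) and at TRIM27 on chromosome 6 (28 to 29 Mb). The limits of the 7p11.2 (54 to 57 Mb) and 17p (15 to 22 Mb) segments were set after the values were seen.

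At 7p11.2 the local background was high in KYSE-30 and not in HET-1A. Relative to the genome background of the same library it was 8.37 (2.75 to 13.6) in library 4 and 10.9 (1.88 to 19.96) in library 6 at the 17 regions there, as median and range, and 1.00 at all 6 with a HET-1A library 2 peak. Over the 656 regions outside the 2 segments the medians were 1.43, 1.84 and 1.27. Fold enrichment divides by this background. In library 4 it was low at the 17 regions (median 2.88, 2.45 to 4.04, against 4.41 over all 697), although summits held many tags. In library 6 the median was 6.60 (2.77 to 11.24), near the 6.63 of all 697 regions. LANCL2 had 82 tags in library 4 and 154 in library 6, MRPS17 92 and 131, and CHCHD2, a mitochondrial protein gene, had fold enrichments of 3.59 and 11.24 against 8.06 in HET-1A library 2. Number of DNA copies and accessibility cannot be told apart in these files. No KYSE-150 peak stood at any of the 17, against 66 of all 697 regions (9.47%), and the KYSE-150 lists were short.

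**Figure D5:**
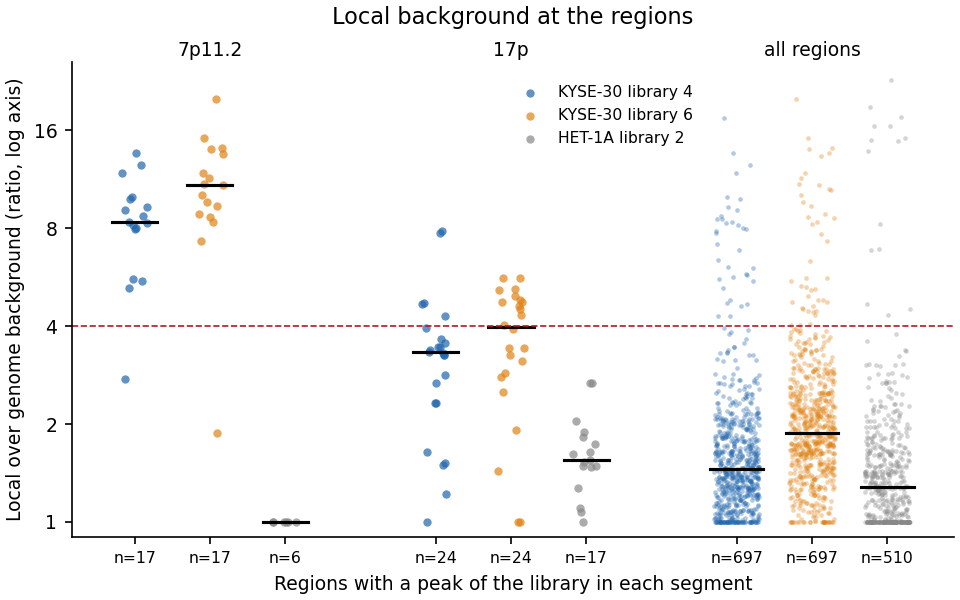
Local background over the genome background of the same library (log axis) at regions of 7p11.2, of 17p and at all 697 regions, for KYSE-30 library 4 (blue), library 6 (orange) and, where it had a peak, HET-1A library 2 (grey). Horizontal bars are medians, the dashed line marks 4 times, and n is the number of regions. At 7p11.2 both KYSE-30 libraries lie mostly above 4 and HET-1A library 2 at 1.

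Primer pairs of the study for non-coding RNAs near EGFR were placed on hg19, and 7 of 13 amplicons fell on these regions, a pair of them on the same region. That of EGFRe1, examined by the study as an enhancer RNA, lay at chr7:54907402-54907553 within the region chr7:54907351-54907618, and its primers are printed to fix the site.
EGFRe1_F: ctgcatctgcacttggcttg
EGFRe1_R: aggtcacttcaaaggccctg
This region was distal intergenic, with fold enrichments of 2.52 and 3.15 from 51 and 46 tags and no peak in any other library. The region of the EGFRnc1 amplicon had 2.88 and 6.60, that of EGFRnc4 3.13 and 5.72, and both had a HET-1A library 2 peak, of 3.91 and 6.91. Amplicons EGFRint2, EGFRint4, EGFRint5 and EGFRint6 fell on regions within the EGFR gene, EGFRint4 and EGFRint5 on the widest one, with 2.82 to 4.04 in library 4 and 7.27 to 8.28 in library 6. Another 4 amplicons fell on a merged region that was not shared by both KYSE-30 libraries.

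At 17p the background was raised to a lesser degree. At the 24 regions it was 3.32 (1.00 to 7.84) in library 4 and 3.98 (1.00 to 5.63) in library 6, against 1.55 (1.00 to 2.67) at the 17 with a HET-1A library 2 peak. At the 2 regions with a peak of KYSE-150 library 7 it was 4.19 and 4.20 in that library, and at the 2 with a peak of library 8 it was 6.47 and 6.57. The 24 regions included B9D1, MAPK7, the gene of the kinase ERK5, with 3.58, 6.87 and 6.55 in HET-1A library 2, USP22, a deubiquitinase gene, with 4.22, 6.87 and 6.52, and 2 sites in the first intron of ADORA2B, an adenosine receptor gene. Repeated words made up more than 50% of the sequence at 5 of the 24, against 1 of 17 at 7p11.2.

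A background of at least 4 times the genome level in both KYSE-30 libraries was found at 29 of the 697 regions (4.16%, 2.91 to 5.91), and 21 of these lay in the 2 segments. A further 5 lay on chromosome 11 near ANO1, CTTN and SHANK2, where 4 had a HET-1A library 2 peak with a background of 8.26 to 18.9 in that library. In HET-1A library 2 the background was high at 15 regions. Of these, 4 stood near MYC and PVT1, at 14.97 to 16.5 against 1.08 to 2.41 in KYSE-30. Near MYL12B it was 13.8 against 1.94 and 2.65 in KYSE-30, and near DLGAP1 22.8 against 3.13 and 5.32. High local background was thus found in KYSE-30 at 7p11.2, in HET-1A library 2 near MYC and in both lines near CTTN and SHANK2.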

How the data were processed

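ATAC-seq peak lists of 6 libraries were used, 2 for each of HET-1A, KYSE-30 and KYSE-150. The authors aligned the reads to hg19 with Bowtie2, marked duplicates with Picard, corrected for the Tn5 offset, retained fragments shorter than 100 bp and ran MACS2 on every library separately (q-value limit 0.05, 200 bp extension, no control). The deposited columns are a score derived from the q-value, the fold enrichment (a ratio), −log10 p and −log10 q (from the p-value and q-value), and the summit. No read counts were used here.

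Summit tags and local background were recovered from the deposited fold enrichment and p-value (within 0.001 in −log10 p) for 100% of peaks in each library, and for 100% of 300 simulated peaks per library. Genes came from GENCODE 44 lifted to hg19, and distances refer to the nearest start site of any transcript. The share of 31-base words that recur in the genome was counted on both strands. Motifs were searched on both strands, with the same window 10 kb downstream as background. Named regions were the 5 leading ones per class, those in all 6 libraries, the most populated 1-Mb windows, the 5 widest, the 5 AP-1 regions nearest to the summits, and listed genes with a region at the promoter. The regions and the gene lists were chosen with earlier results of these data known, and the limits of the 7p11.2 and 17p segments after their values were seen. Some listed genes are counted but not reported by name here. Alternatives are given in the closing section. The work used matplotlib 3.10.9, numba 0.67.0, pysam 0.24.0, scipy 1.17.1, pandas 2.3.3 and numpy 2.4.6 under Python 3.11.15.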

Additional observations from a re-analysis of the deposited data

How the results depend on the processing

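Under peaks with a q-value below 0.01 or 0.001, without regions of over 50% repeated words and without the 15 regions of all 6 libraries (the last 2 chosen after seeing the data), the 8 main values stayed within their intervals, or the count within 1.5 times. Requiring that peaks of both libraries cover 50% of each other left 450 regions with summits 49 bp apart. Cutting library 6 to the 1255 peaks of library 4 left 262 regions, of which 78.2% had a HET-1A library 2 peak, 19.5% no peak in another line and 8.78% a raised background in both libraries, and 70.2% of those outside promoters held the AP-1 core. The promoter share was 72.3% with promoters of 1 kb and 65.9% when non-coding start sites were set aside. The AP-1 share was 46.1% within 100 bp of the library 6 summit. A raised background was found in both libraries at 20.5% with a limit of 2 times and at 1.22% without the 7p11.2 and 17p segments, also chosen after seeing the data. Of the gene lists, 18 of 19 kept their count with promoters of 1 kb, and cyclins, CDKs and CDK inhibitors fell from 2 to 1, the gene lost being CDK2.

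With each library left out in turn the count ranged from 696 to 11643 regions, where leaving out one KYSE-30 library leaves all regions of the other. The ranges were 55.04 to 76.04% for promoters, 10.2 to 17.5% for distal intergenic regions, 38.98 to 73.2% for a HET-1A library 2 peak, 24.96 to 90.7% for no peak in another line (90.7% without HET-1A library 2), 25.8 to 58.1% for the AP-1 core and 1.33 to 6.49% for a raised background. Summit distance was 66 bp with any library of another line left out. No paired analysis was possible because the lines share no replicate number. Short lists limit what can be said of KYSE-150 and HET-1A library 1, where a missing peak is not shown to be closed chromatin.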
